A study of Sus scrofa with 8 samples.

Results

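The HOXC cluster of the pig was taken as the 9 genes that the RefSeq annotation of Sscrofa11.1 names HOXC4, HOXC5, HOXC6, HOXC8, HOXC9, HOXC10, HOXC11, HOXC12 and HOXC13. All 9 were found, among 25757 annotated genes (19487 of them protein-coding) on chromosomes 1 to 18 and X. They lie on the forward strand of chr5:19151096-19268267, a span of 117172 bp with 0 unknown bases, in the order HOXC13, HOXC12, HOXC11, HOXC10, HOXC9, HOXC8, HOXC6, HOXC5 and HOXC4. Peaks were read within 1 kb of each gene start, across the cluster and within 200 kb of its edges.

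The cells were pig embryonic fibroblasts (PEFs), isolated from fetuses of Large White pigs at an age of 35 days and cultured for 24 h, with no treatment. ChIP-seq, in which DNA bound by a protein is pulled down with an antibody and sequenced, was performed for H3K4me3, H3K27ac and CTCF, with 2 replicates each, so that there were 6 peak lists and no second condition. The labels name no genetic change or agent in any library. They number the replicates but do not say whether these came from separate cultures or fetuses, so the spread between replicates may be technical. The lists held 37932 and 43516 H3K4me3, 74983 and 81164 H3K27ac, and 40289 and 44682 CTCF peaks in replicates 1 and 2, and they give no read counts, so that how many reads lie behind a given peak is not known.

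HOX genes encode homeodomain transcription factors that give cells their position along the body axis. In each HOX cluster the genes stand in the order in which they are used, with low-numbered genes towards the head and high-numbered genes towards the tail and the ends of the limbs, and cultured fibroblasts keep a HOX pattern of the place they came from. H3K4me3 marks promoters and, at developmental genes, can be present at silent promoters too, H3K27ac marks active promoters and enhancers, and CTCF is a zinc finger protein that binds an oriented DNA motif and can hold boundaries between chromatin domains, including those inside HOX clusters.

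The labelled cell type was checked with marker genes. All 14 fibroblast genes on the list, such as COL1A1 and PDGFRA, had H3K4me3 and H3K27ac within 1 kb of the start in both replicates. Over all protein-coding genes the share was 58.9% for both marks, 68.9% for H3K4me3 and 60.7% for H3K27ac, and no list was tested against these. All 5 epithelial genes had H3K4me3 and 0 had H3K27ac, and among the 4 endothelial genes these counts were 1 and 0. The other lists held single genes with H3K27ac in both replicates, namely SPI1 of 4 blood genes, MYOG of 3 muscle genes and APOA1 of 3 liver genes, and 0 of the 3 neural genes found had it. H3K4me3 was at 1 of these blood, 2 of the muscle, 1 of the liver and 3 of the neural genes in both replicates.

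The sequences on which the CTCF results turn are given first. Each line holds a CTCF motif match in a region with a CTCF peak in both replicates, in gene order and for 6 of the 7 such regions of the cluster, read from the RefSeq genome sequence of Sscrofa11.1 on the strand that carries the motif. The 19 bases of the motif are in capitals with 20 bases on either side, except in the noncoding exon of HOXC6, where the motif alone is shown. "Forward" means that the G-rich strand of the motif is that of the HOXC genes.
HOXC12 to HOXC11 interval (chr5:19173764-19173822, reverse): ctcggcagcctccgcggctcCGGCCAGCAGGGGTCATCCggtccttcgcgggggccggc
HOXC10 coding exon (chr5:19201964-19202022, reverse): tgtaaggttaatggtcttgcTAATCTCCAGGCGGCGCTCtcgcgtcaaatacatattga
HOXC9 to HOXC8 interval (chr5:19219100-19219158, forward): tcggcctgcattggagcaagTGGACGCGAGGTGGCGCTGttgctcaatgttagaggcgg
HOXC6 intron (chr5:19234663-19234721, reverse): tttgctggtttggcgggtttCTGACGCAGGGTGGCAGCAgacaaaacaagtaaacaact
HOXC6 noncoding exon (chr5:19239026-19239044, forward): TGCCCTCCAGGGGGCCTGA
HOXC5 promoter (chr5:19245498-19245556, forward): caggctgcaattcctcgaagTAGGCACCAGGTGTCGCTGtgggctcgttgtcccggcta

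Both microRNA genes of the cluster lay inside the wide block of histone marks described below. Their mature sequences are given as genomic DNA, with the seed (bases 2 to 8) in capitals. The 2 seeds differ, so the microRNAs belong to different seed families. The miR-196 family is known to repress HOX8 group transcripts.
MIR196A-2 (ssc-miR-196a, chr5:19204463-19204484): tAGGTAGTttcatgttgttggg
MIR615 (ssc-miR-615, chr5:19246820-19246840): tCCGAGCCtgggtctccctct

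Across the 9 gene starts, 8 had an H3K4me3 peak within 1 kb in both replicates, all but HOXC11. Over all protein-coding genes the share was 68.9%. For H3K27ac the count was 7 of 9, without HOXC12 and HOXC11, where the share over protein-coding genes was 60.7%. The same 7 had both histone marks (58.9% of protein-coding genes), and HOXC12 alone had H3K4me3 with H3K27ac in neither replicate (8.25% of protein-coding genes). CTCF lay within 1 kb of the starts of HOXC10 and HOXC5, 2 of 9 genes, where 17.9% of protein-coding genes had it. Each replicate taken alone gave the same genes for every mark. The 9 genes are neighbours that share peaks and are not independent, so these counts describe the locus and no test was made of them.

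**Figure D1:**
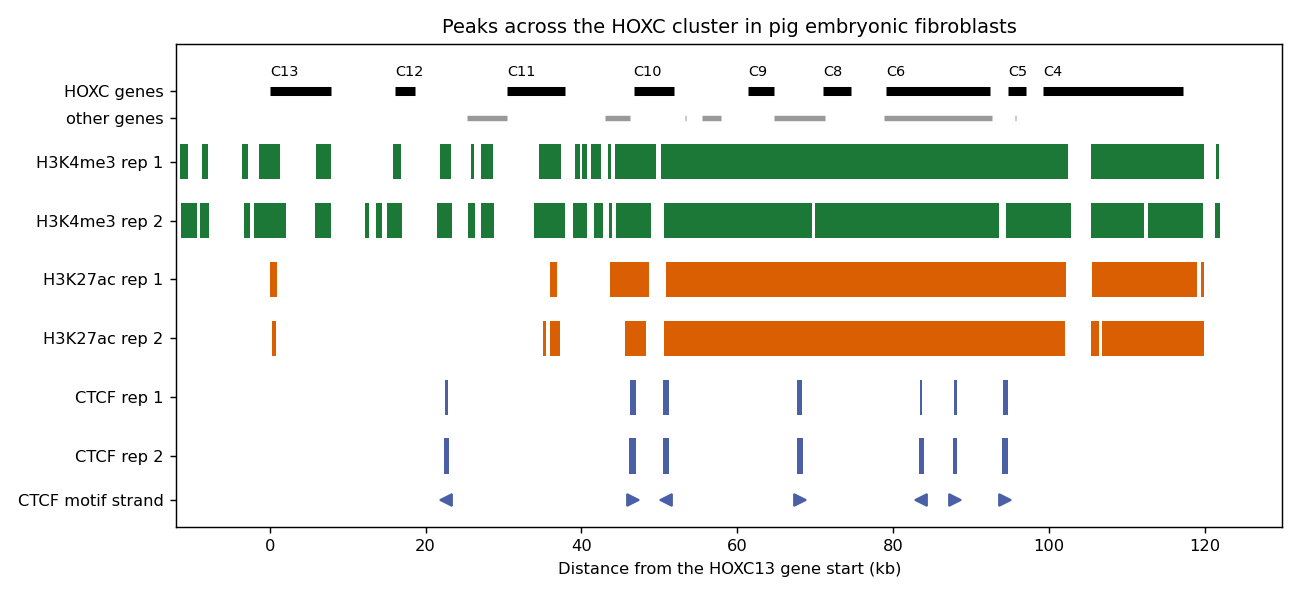
Peaks of the 6 libraries across the HOXC cluster, drawn to scale against the distance from the HOXC13 gene start in kb; bars are peaks, black bars the HOXC genes, grey bars other annotated genes, and triangles the strand of the CTCF motif (pointing right, forward). The H3K27ac tracks hold a few short peaks left of HOXC10 and are nearly filled from 50.9 kb (replicate 1) or 50.6 kb (replicate 2) onwards, where H3K4me3 is nearly filled too.

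HOXC13, the gene at the tail end of the series and known for its role in hair and nail, had its own H3K4me3 peak. The fold enrichment over the control at the summit was 27.6 in replicate 1 and 10.6 in replicate 2, with summits 216 and 326 bp downstream of the gene start. Both values lay above the median of their library, which was 9.27 and 6.16. H3K27ac at this start was weak. Its peaks began 17 and 270 bp downstream of the start, were 977 and 567 bp wide and reached folds of 3.19 and 2.51, with −log10 q-values of 4.02 and 2.04. With a −log10 q-value of at least 5, the H3K27ac call at HOXC13 was lost. A further H3K4me3 region at chr5:19156903-19159004, over the noncoding part of the last HOXC13 exon, had folds of 15.0 and 10.2.

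HOXC12, which follows HOXC13 and belongs to the same group of posterior genes, had the weakest H3K4me3 of the marked starts. The folds were 4.49 and 3.09, both under the library medians, and the summits lay at 217 bp from the start in replicate 1 and at -791 bp, upstream of it, in replicate 2. The call was lost with a −log10 q-value of at least 5, since replicate 2 had 3.45. The nearest H3K27ac peaks were 15085 and 15242 bp away. Stronger H3K4me3 stood further along, outside any annotated gene, at chr5:19172609-19174480 (folds 26.0 and 12.8), and this region held the first CTCF site of the cluster.

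HOXC11, a posterior gene active in hindlimb and kidney development, was the member without any peak within 1 kb of its annotated start. Its start lay in the longest stretch of the cluster without either histone mark in either replicate, 5146 bp at chr5:19179898-19185043. The nearest H3K4me3 peaks were 1854 and 1683 bp away, in an intron of LOC110260667, a long noncoding RNA (lncRNA) gene on the reverse strand, with folds of 20.9 and 14.1. The annotated start of HOXC11 is 4291 bp before its start codon, however, and H3K4me3 was present at the coding part. The region chr5:19185044-19189026 had folds of 24.3 and 12.8, and taking start codons in place of gene starts gave H3K4me3 at 9 of 9 members. The share over all protein-coding genes was not taken at start codons, so this count has none beside it. H3K27ac in the HOXC11 intron, at chr5:19187034-19188341, had folds of 5.88 and 6.69, above the library medians of 4.84 and 4.75.

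HOXC10, a hindlimb gene, was marked by all 3 targets. H3K4me3 covered the start with folds of 18.6 and 13.2, H3K27ac with 6.57 and 4.47, and CTCF with 21.5 and 29.3. The CTCF summits were at -133 and -134 bp from the start, upstream of it, with a forward motif. Both histone mark peaks there were narrow beside the block that follows, with H3K4me3 peaks of 5166 and 4370 bp and H3K27ac peaks of 4938 and 2785 bp. The start of the lncRNA gene LOC110260668, which runs the other way, lay under the same peaks.

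From inside HOXC10 to past the start of HOXC4, the histone marks merged into 1 block. In H3K4me3 replicate 1 a single peak covered chr5:19201378-19253557, 52180 bp, with a fold of 69.2 at its summit in a coding exon of HOXC9. In replicate 2 the same stretch was cut into 3 peaks of 19079, 23567 and 8305 bp, with folds of 31.9, 22.5 and 18.7, which together spanned 52236 bp with 1285 bp between them. Only the summit of a peak has a fold in these lists, so in replicate 1 and for H3K27ac the genes under the block cannot be ranked. In H3K4me3 replicate 2 the summits lay 755 bp downstream of the HOXC9 start, at -97 bp from the HOXC6 start and 342 bp downstream of the HOXC5 start.

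H3K27ac formed the block as 1 peak in each replicate. The peaks were 51331 bp (chr5:19202013-19253343) and 51574 bp (chr5:19201649-19253222) wide. Their folds were 37.5 and 42.0, and their summits lay 70 bp apart in an intron of HOXC6, 1089 and 1159 bp downstream of its start. Both summits also lay in an exon of the lncRNA gene LOC110260669 on the reverse strand. HOXC6 is a gene of the thoracic level. The region with the highest mean fold of H3K27ac in the cluster, 39.7 ± 3.17 (SD, n = 2), and the widest are thus the same, and this held for H3K4me3 as well, with 50.6 ± 26.4 (SD, n = 2).

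The block held 10 gene starts. These were HOXC9, HOXC8, HOXC6, HOXC5 and HOXC4, the microRNA genes MIR196A-2 and MIR615, the lncRNA genes LOC106510294 and LOC110260669, both on the reverse strand, and LOC102167757, which the annotation calls protein-coding without a name. HOXC8 and HOXC9 act at thoracic and lumbar levels, and HOXC5 and HOXC4 at cervical levels. The gene spans of HOXC9, HOXC8, HOXC6 and HOXC5 were covered to 100% by both histone marks in both replicates.

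The edges of the block were close to each other in the 4 libraries. On the HOXC10 side they lay at -615 and -325 bp (H3K4me3) and at 20 and -344 bp (H3K27ac) from a CTCF summit at position 19201993, in a coding exon of HOXC10. In H3K4me3 replicate 1 the HOXC10 peak ended at 19200620 and the block began at 19201378. That gap is shorter than one inside the block in replicate 2, between peaks that end at 19244715 and begin at 19245599. The left H3K4me3 edge in replicate 1 thus depends on how peaks were joined. On the HOXC4 side the edges lay 3146, 3492, 2932 and 2811 bp past the HOXC4 gene start. Whether CTCF has a part in the left edge was not tested; no CTCF peak lay at the right edge, and the nearest to the HOXC4 start ended 4523 and 4529 bp before it.

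HOXC4, the member nearest the head end, has a gene start 15747 bp before its start codon. The gene start lay at the end of the wide block, and the coding part lay in a separate block at chr5:19256478-19271012. There H3K4me3 had a summit in a coding exon, with folds of 47.3 and 26.5. H3K27ac in this block reached 25.1 and 26.7 in a noncoding exon. HOXC4 was thus marked by both histone marks at either position.

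**Figure D2:**
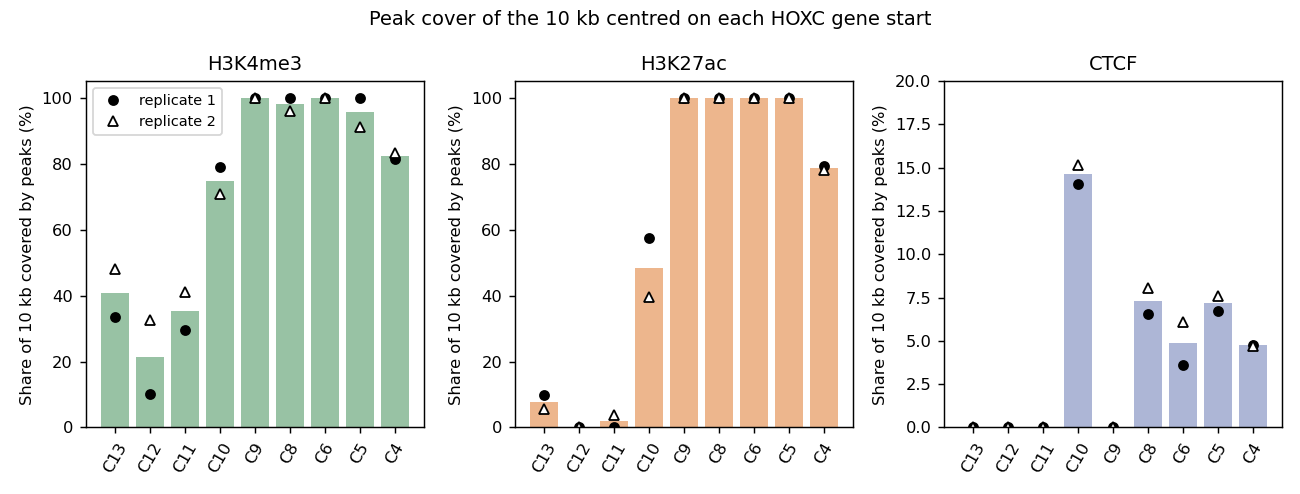
Share of the 10 kb centred on each HOXC gene start that was covered by peaks, in percent, in gene order; bars are means and points the 2 replicates, and the CTCF axis ends at 20%. HOXC9, HOXC6 and HOXC5 reach 100% for H3K27ac in both replicates, as does HOXC8, while HOXC12 lies at 0% and HOXC11 at 0% and 3.88%.

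The marks around the gene starts fell into 3 ranges. In the 10 kb centred on the start, H3K27ac covered 9.77% and 5.67% at HOXC13, 0% and 0% at HOXC12, and 0% and 3.88% at HOXC11. HOXC10 was intermediate, at 57.4% and 39.5%. HOXC9, HOXC8, HOXC6 and HOXC5 were at 100% in both replicates and HOXC4 at 79.3% and 78.1%. HOXC13, HOXC12 and HOXC11 had the lowest values in each replicate, and HOXC13 had the highest of these 3 in both replicates. The ranges were read from these same values and neighbouring genes share peaks, so the ranges are a description.

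H3K4me3 around the starts showed the same order with smaller differences. It covered 33.5% and 47.9% at HOXC13, 10.3% and 32.7% at HOXC12, and 29.5% and 40.9% at HOXC11. HOXC10 had 78.9% and 70.7%, and HOXC9 to HOXC4 lay between 81.5% and 100% in both replicates. HOXC12 differed most between replicates, by more than it differed from HOXC11 in replicate 2.

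For description, the cluster was divided at the HOXC10 start, following these shares. From the HOXC13 start to the base before HOXC10 (46714 bp), H3K27ac covered 10.4% and 7.37% and H3K4me3 33.8% and 46.2%. From HOXC10 to the end of HOXC4 (70458 bp), H3K27ac covered 92.1% and 91.7% and H3K4me3 94.7% and 91.5%. Since the line follows the shares around the starts, the difference between the parts is a description and no test of a division. H3K27ac was absent from both replicates over 34103 bp of the HOXC13 side, chr5:19152090-19186192, a stretch that holds 5 whole H3K4me3 regions shared by both replicates.

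Across the whole cluster, H3K4me3 peaks covered 70.4% and 73.4%, or 71.9% ± 2.15 (SD, n = 2), H3K27ac peaks 59.5% and 58.1%, or 58.8% ± 1.01 (SD, n = 2), and CTCF peaks 3.38% and 4.12%. The cluster held 14 and 18 H3K4me3, 5 and 7 H3K27ac and 7 and 7 CTCF peaks. Per 100 kb, this was 11.9 and 15.4 for H3K4me3, 4.27 and 5.97 for H3K27ac and 5.97 and 5.97 for CTCF. Over chromosomes 1 to 18 and X the densities were 1.57 and 1.801, 3.11 and 3.37, and 1.67 and 1.85. A wide block counts as 1 peak, so the number of H3K27ac peaks understates how much of the cluster they cover.

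The replicates matched closely in position. Peaks of both replicates joined into 13 H3K4me3, 5 H3K27ac and 7 CTCF regions, and 2 H3K4me3 peaks and 1 H3K27ac peak of replicate 2 had no partner. The median distance between the summits of a region was 82 bp for H3K4me3, 137 bp for H3K27ac and 20 bp for CTCF. The fold was lower in replicate 2 at 11 of 13 H3K4me3 regions, and the median ratio of replicate 1 to replicate 2, 1.46, was close to that of the median folds of all peaks of these libraries, 1.503. H3K4me3 folds are therefore given per replicate, apart from the mean of the wide block, whose SD includes this difference between libraries.

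**Figure D3:**
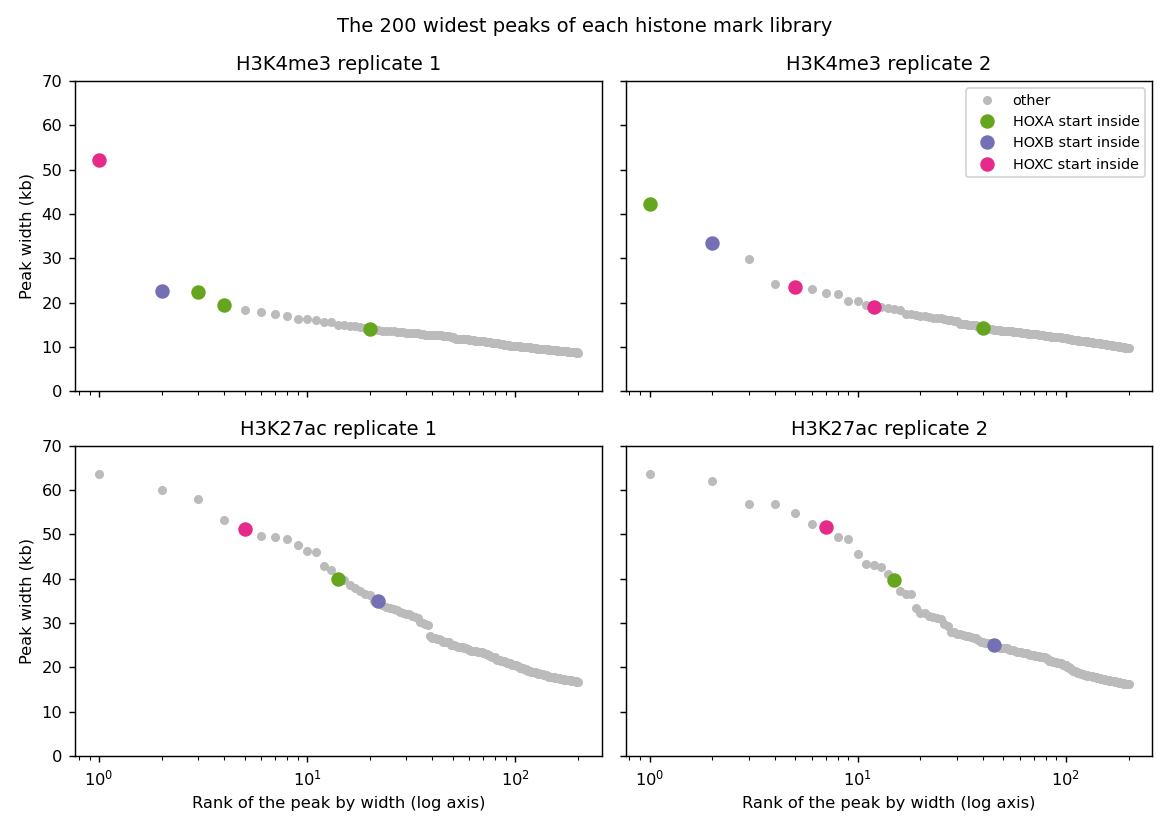
Widths in kb of the 200 widest peaks of each histone mark library against their rank (log axis); coloured points hold the gene start of a HOX gene and grey points do not. The HOXC peak of 52180 bp is the widest H3K4me3 peak of replicate 1, and the HOXC peaks of H3K27ac rank 5 and 7.

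The width of the block was unusual for H3K4me3, but other HOX clusters had very wide peaks too. Of the 5 widest H3K4me3 peaks, 4 in replicate 1 and 3 in replicate 2 held the start of a HOX gene. Peaks of at least 10 kb made up 112 of the H3K4me3 peaks of replicate 1 (0.295%) and 188 of replicate 2 (0.432%), and for H3K27ac 848 (1.13%) and 809 (0.997%). In each of the 4 lists 2 of them touched the HOXC cluster. The peak of 52180 bp was the widest of replicate 1, and the next, 22750 bp, was in the HOXB cluster. In replicate 2 the widest peak, 42257 bp, was in the HOXA cluster and the next, 33542 bp, in the HOXB cluster. The widest HOXC peak of replicate 2, 23567 bp, ranked 5. By fold, the H3K4me3 peak of 52180 bp ranked 1946 in replicate 1, and the strongest peak of the block in replicate 2, 19079 bp wide, ranked 2985. The H3K27ac peaks ranked 5 and 7 by width and 425 and 427 by fold.

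CTCF had 7 regions in the cluster, each with a peak in both replicates, and all 7 held the motif within 100 bp of a summit. Over all peaks, 88.4% of replicate 1 and 87.1% of replicate 2 held it, so the share in the cluster is near the background. With a stricter motif probability of 1e-05, 4 of the 7 held it, those between HOXC12 and HOXC11, at the HOXC10 promoter, between HOXC9 and HOXC8 and at the HOXC5 promoter. The share over all CTCF peaks was not taken at 1e-05, so whether this count is low is not known. All 7 regions overlapped H3K4me3 in both replicates and 6 overlapped H3K27ac in both, whereas 27.6% of the CTCF peaks of replicate 1 and 30.5% of those of replicate 2 overlapped H3K27ac. For H3K4me3 the shares over all CTCF peaks were 21.9% and 24%. Since the block covers most of the right part of the cluster, sites there overlap it by position.

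The sites fell into a strong and a weak set. The HOXC5 promoter site, with its summits at -366 and -359 bp from the start, had folds of 25.9 and 39.0, or 32.4 ± 9.25 (SD, n = 2), the highest mean of the cluster. The site between HOXC9 and HOXC8, in an intron of LOC106510294, had 25.3 and 28.7, and the HOXC10 promoter site had 21.5 and 29.3. These 3 differed by less than the spread between replicates of the HOXC5 site. All 3 motifs were forward, and the medians of all CTCF peaks were 19.6 and 19.1.

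The other 4 sites lay under those medians in both replicates. The site in the HOXC10 coding exon, at the left edge of the block, had folds of 12.7 and 11.7. The site between HOXC12 and HOXC11, the sole one without H3K27ac, had 8.06 and 10.2. The 2 sites inside HOXC6 were the weakest, with 3.91 and 4.73 in the intron and 6.15 and 4.67 in the noncoding exon, and the share of all CTCF peaks with a fold at least as high was 99.4% and 93.4% for the former and 89.97% and 93.8% for the latter. Of these 4 motifs, 3 were reverse and the one in the noncoding exon of HOXC6 was forward. The intron site had a −log10 q-value of 3.01 in replicate 1 and its summits were 82 bp apart, the largest distance of the 7.

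**Figure D4:**
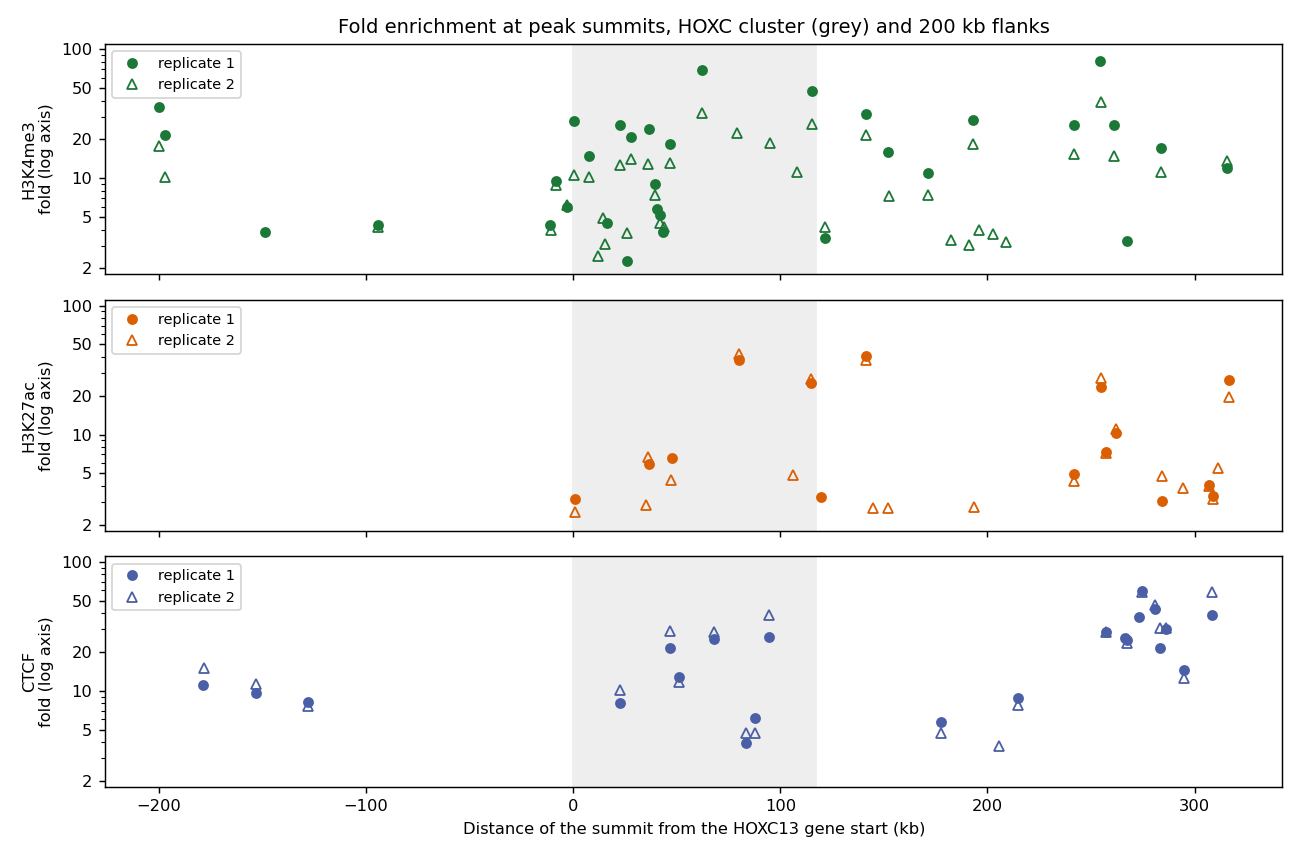
Fold enrichment at the summit of every peak (log axis) against the distance of the summit from the HOXC13 gene start in kb, with the cluster in grey and the 200 kb flanks in white; filled circles are replicate 1 and open triangles replicate 2. H3K27ac has 0 peaks in the left flank, and CTCF has its highest folds, 58.9 and 58.7, in the right flank.

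The flanks of the cluster differed. In the 200 kb before HOXC13, no gene starts, and an intron of the lncRNA gene LOC106507255 spans part of it. H3K27ac had 0 peaks there in either replicate, so that 200017 bp up to position 19151112 held none, and H3K4me3 had 7 and 6 peaks that covered 3.19% and 3.97%. No histone mark was found over 82282 bp, chr5:19057238-19139519. CTCF had 3 and 3 peaks, and the nearest to the cluster, at chr5:19022849-19023453, had folds of 8.15 and 7.65 and a reverse motif. Between it and the first site of the cluster, CTCF was absent over 150012 bp, a stretch that contains HOXC13 and HOXC12.

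In the 200 kb after HOXC4, H3K4me3 had 11 and 15 peaks (9.999% and 12.2% covered), H3K27ac 10 and 14 (10.7% and 12.4%) and CTCF 12 and 11 (4.26% and 5.48%). The nearest CTCF region, at chr5:19328315-19328859, had folds of 5.71 and 4.68 and a reverse motif. The start of the lncRNA gene LOC102159203 had H3K4me3 folds of 31.7 and 21.6 and H3K27ac folds of 40.4 and 37.6, which lay within the range of the H3K27ac block of the cluster, 37.5 to 42.0. SMUG1 encodes a uracil DNA glycosylase and is the sole protein-coding gene with its start in this flank. It had both histone marks at its start, with H3K4me3 folds of 25.9 and 14.9 and H3K27ac folds of 10.2 and 11.0. Stronger peaks stood in a noncoding SMUG1 exon, with H3K4me3 summits 7022 and 7007 bp downstream of the start. The H3K4me3 folds there were 81.8 and 38.9, above the 69.2 and 31.9 of the block in the cluster. The H3K27ac folds there were 23.3 and 27.5.

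**Figure D5:**
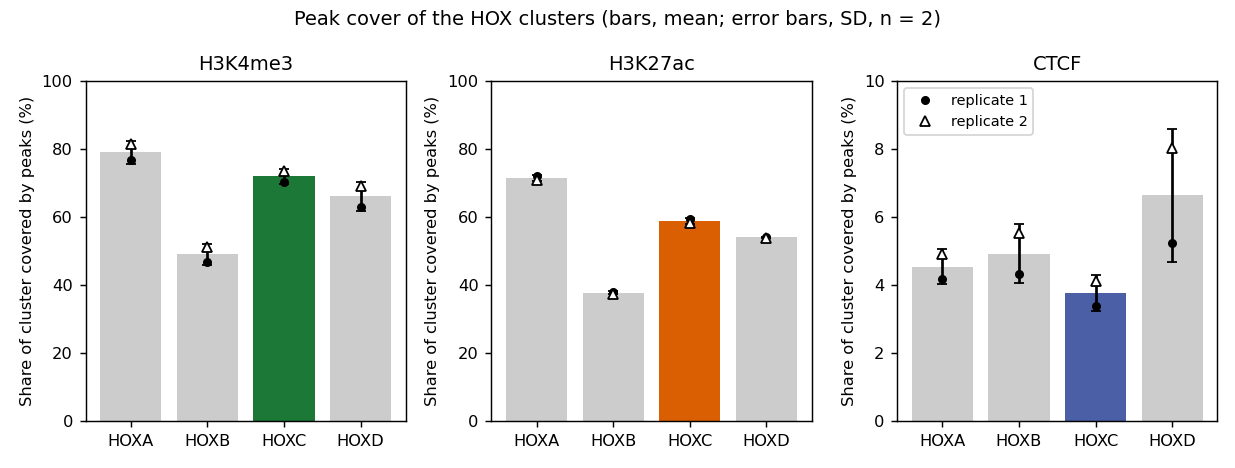
Share of each HOX cluster covered by peaks, in percent, for the 3 targets; bars are means, error bars the SD over 2 replicates and points the replicates, and the CTCF axis ends at 10%. HOXC lies between HOXA and HOXD for H3K4me3 and H3K27ac and is lowest for CTCF.

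Set beside the other HOX clusters, HOXC came after HOXA in cover by histone marks. The H3K4me3 share was 79.1% ± 3.41 in HOXA, 71.9% ± 2.15 in HOXC, 66.1% ± 4.29 in HOXD and 49.0% ± 3.11 in HOXB (SD, n = 2 each). The H3K27ac shares were 71.5% ± 0.930, 58.8% ± 1.01, 54.0% ± 0.0788 and 37.8% ± 0.434 in the same order. The replicate ranges of the 4 clusters did not overlap for either mark. For CTCF the shares were 4.54% ± 0.513 in HOXA, 3.75% ± 0.527 in HOXC, 6.64% ± 1.96 in HOXD and 4.93% ± 0.865 in HOXB. Both HOXC values lay below those of the other clusters, whose ranges overlapped in part, but the gap was small. HOXC replicate 2 had 4.12% and HOXA replicate 1 had 4.18%. By CTCF peaks per 100 kb HOXC was not lowest, with 5.97 and 5.97. HOXA had 5.61 and 6.54, HOXB 5.43 and 5.43, and HOXD 7.29 and 9.37. No test of 1 locus against 3 is possible, and the annotation does not name every HOX gene of the other clusters.

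The genes of groups 10 to 13 and of groups 1 to 9 in the other clusters are given beside those of HOXC, with no test. For HOXC this split is the same as the division at the HOXC10 start above, which followed the shares. Of the HOX genes of groups 10 to 13, H3K27ac was at the start of 2 of 4 in HOXC, 2 of 3 in HOXA, 0 of 1 in HOXB and 2 of 4 in HOXD, where the share over protein-coding genes was 60.7%. Of groups 1 to 9 it was at 5 of 5 in HOXC, 8 of 8 in HOXA, 6 of 7 in HOXB and 3 of 4 in HOXD. H3K4me3 was at 3 of 4 starts of groups 10 to 13 in HOXC and 8 of 8 in the other clusters together, and at 5 of 5 and 17 of 19 starts of groups 1 to 9, where the share over protein-coding genes was 68.9%.

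For each member, the most similar of the 27 other HOX genes was the one nearest in the 6 covered shares around the start, by Euclidean distance in percentage points. HOXC9 was nearest to HOXA2 (1.55), and HOXC8, HOXC6 and HOXC5 to HOXA5 (4.04, 3.86 and 8.84). HOXB5 was almost as near to HOXC8, HOXC6 and HOXC5 (4.07, 4.18 and 8.87). HOXC4 was nearest to HOXD8 (17.4) and HOXC10 to HOXA10 (20.2), a gene of its own group. HOXC13 and HOXC11 were nearest to HOXD12 (19.7 and 27.04), and HOXC12 to HOXB1 (33.4). For HOXC11, HOXB13 was almost as near (27.58). The distances of the covered genes are small since shares near 100% leave little room, and the pairs are a description of 6 libraries.

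HOX proteins bind DNA with partners of the TALE homeodomain class, the PBX, MEIS and PKNOX proteins. Of 9 such genes, 8 had H3K4me3 and H3K27ac at the start in both replicates, against 58.9% of protein-coding genes, and PKNOX1 had neither, with the nearest H3K4me3 peaks 4571 and 4889 bp from its annotated start. Of 25 genes that regulate HOX genes, among them the MLL complex, Polycomb, retinoic acid receptor and CDX genes, 22 had H3K4me3, 21 H3K27ac, 20 both and 7 CTCF at the start. Over protein-coding genes these shares were 68.9%, 60.7%, 58.9% and 17.9%, and neither list was tested against them. Those without H3K4me3 were CDX1 and CDX4, which encode early activators of HOX genes in the embryo, and the CTCF gene. CDX1 had H3K27ac and CTCF at its start in both replicates, with the nearest H3K4me3 peaks 2679 and 2652 bp away. CDX4 had no mark at its start, and its nearest H3K4me3 peaks were 86436 and 86232 bp away. For the CTCF gene they were 6288 and 6217 bp from the gene start, and H3K4me3 was at another annotated transcript start. The Polycomb genes EZH2, EED, SUZ12, BMI1 and RNF2 and the demethylase genes KDM6A and KDM6B had both histone marks, while CBX7 and CDX2 had H3K4me3 without H3K27ac.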

How the data were processed

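ChIP-seq of H3K4me3, H3K27ac and CTCF in PEFs (2 replicates each) was analysed from the peak lists deposited per library. The authors aligned reads with Bowtie2, kept uniquely mapped fragments without duplicates and ran MACS2 for narrow peaks, naming Sscrofa11.1 in the submitters' processing notes; versions are not given in the sources used here. The deposited lists hold an integer score, the −log10 of a p-value and of a q-value, and, as a ratio, the fold enrichment of the summit over the control. Per the methods q was 0.01, but between 0.0560% and 3.06% of peaks per list had a higher q, up to 0.0499; lists were used as deposited, and the score was not used. A wide peak gives 1 fold at its summit. Input libraries were not analysed here.

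Positions were read on RefSeq Sscrofa11.1 with Python 3.11.15, numpy 2.4.6, pandas 2.3.3 and pysam 0.24.0. A mark was counted at a gene start with a peak within 1000 bp, in both replicates; overlap was at least 1 bp. A CTCF motif of 19 bp was learned from 600 strong peaks of replicate 1 on odd autosomes other than 5. It was searched within 100 bp of summits at a per-position probability of 0.0001. The learning and search steps were tried on an artificial motif in 1000 simulated sequences of 101 bp. That motif was found in 97.7% of planted and 2.1% of unplanted sequences, which gives no error rate for the CTCF motif itself. No test was made, since there is 1 locus and no second condition. The members, lists and alternatives were chosen with earlier results of these data known. Named were all members, every gene starting in the cluster, protein-coding genes starting in the flanks, the pathway and marker lists, the nearest HOX gene of each member, and, for each mark, the peaks at member starts, the strongest and widest region, and the CTCF regions; LOC102159203, LOC106507255, CBX5 and further regions with folds in the text were named after their values were seen. The sequence at the HOXC10 start is not reported here.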

Additional observations from a re-analysis of the deposited data

How the results depend on the processing

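Of 72 alternative values for 16 results, 67 stayed within 1.5 times the reported value or within the spread between replicates. With 5 kb in place of 1 kb, 5 HOXC starts had CTCF in both replicates, against 2, in a window that is wider by construction. Shares over all protein-coding genes were taken at the main settings alone, so these alternative counts of starts have none beside them. With 100 kb flanks, the mean number of flank peaks was 11.5 for H3K4me3, 3 for H3K27ac and 2.5 for CTCF, against 19.5, 12 and 14.5 in 200 kb flanks, which is a shorter region by construction. With a motif probability of 1e-05, 4 of 7 CTCF regions held the motif, with no share over all CTCF peaks taken at that setting. With a −log10 q-value of at least 5, 7 starts had H3K4me3 and 6 had H3K27ac, and with start codons 9 had H3K4me3. Leaving out either replicate gave 8, 7 and 2 starts for H3K4me3, H3K27ac and CTCF, as with both. No paired analysis was possible because no result comes from a test between groups. Limits are that the lists hold no read counts, that a fold exists at the summit of a peak alone, that gene starts are those annotated, and that peaks show where a mark was found and not whether a gene was transcribed.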

Other observations

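CTCF peaks covered 4.26% and 5.48% of the right flank and 3.38% and 4.12% of the cluster, and most motifs of the flank were on the reverse strand. Of the 10 regions shared by both replicates there, 9 held the motif, of which 7 were reverse and 2 forward, while the cluster held 4 forward and 3 reverse motifs. The strongest, at chr5:19423597-19426004, had its summit at -12954 bp from the SMUG1 start, upstream of it, with folds of 58.9 and 58.7, and its motif was TTGCCAGCAGAGGGCAACA. The region at chr5:19431584-19432601 had 43.1 and 46.6, and one in an intron of CBX5, which encodes a heterochromatin protein, had 38.5 and 58.7. Contacts between these sites were not analysed here, and the orientations are a description.

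The base composition of the gene starts (250 bp before to 50 bp after) varied widely among the members. The ratio of observed to expected CpG was 1.12 at HOXC8, 0.928 at HOXC9 and 0.804 at HOXC12, against a median of 0.650 over protein-coding genes. It was 0.289 at HOXC11, 0.259 at HOXC6 and 0.220 at HOXC4. HOXC10 had 0.775, HOXC13 0.673 and HOXC5 0.533. Genes in the wide block stood at both ends of this range, HOXC8 and HOXC9 at the top and HOXC6 and HOXC4 at the bottom. So did the starts with weak or no H3K4me3, HOXC12 with a high and HOXC11 with a low ratio. The lowest ratios were those of HOXC11, HOXC6 and HOXC4, whose annotated starts lie 4291, 2146 and 15747 bp before their start codons. For the other members this distance was 0 to 492 bp. The window was taken at the gene start alone, although HOXC6 has 3 and HOXC4 6 annotated transcript starts. The ratio at start codons or other transcript starts was not tested, so these low values describe the annotated gene starts alone. TATAAA, searched on the strand of each gene, stood in the windows of HOXC6 and HOXC5, and in 6.95% of the windows of protein-coding genes.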
